A study of Mus musculus with 33 samples.

Results

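The genes described here are the 8 that write, guide, maintain and oxidise DNA methylation in the mouse, namely Tet1, Tet2, Tet3, Dnmt1, Dnmt3a, Dnmt3b, Dnmt3l and Uhrf1. They were chosen by name, as 8 of the 37991 genes counted in every library. No rule on their values was used, but earlier results of these data were known. Their RNA was followed in E14TG2a, a mouse embryonic stem cell line, in 33 RNA-seq libraries that form 12 groups of 4 genotypes and 3 stages. The stages were mESCs, embryoid bodies (EBs) grown for 8 days as aggregates that differentiate, and EBs + RA, which are EBs that received 5 µM retinoic acid from day 4. The genotypes were control, Neil1, Neil2 and Apex1. The mutants were made with CRISPR/Cas9 and carried deletions that were meant to remove the part of the gene coding for the active site. According to the paper, the control cells had been mock transfected, without guide RNAs for a gene. Control cells were represented by clones #1, #4 and #7, Neil1 cells by clones #7, #9 and #11 and Neil2 cells by clones #1, #11 and #14, with 1 library per clone and stage. Apex1 cells were 1 clone (#46) in technical duplicate, so that the spread of its 2 libraries does not include the spread between clones. The 3 mutants of a stage were each compared with the same 3 control libraries.

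Methylated cytosine at CpG sites is put in place by the de novo methyltransferases DNMT3A and DNMT3B, with DNMT3L, which has no catalytic activity of its own, as a cofactor in embryonic and germ cells. DNMT1 copies the pattern at replication and is brought to newly replicated DNA by UHRF1, a protein that binds hemimethylated CpG. The TET dioxygenases oxidise 5-methylcytosine, and oxidised forms can be removed by TDG and base excision repair, the pathway in which the glycosylases NEIL1 and NEIL2 and the endonuclease APEX1 act. In the mouse, Tet1, Tet2, Dnmt3b and Dnmt3l are known as genes of pluripotent cells, and Tet3 as the TET gene of oocytes and of differentiated cells.

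The libraries held between 21523742 and 48350904 counts on genes (median 26720028). Levels are given as CPM (each gene's share of the counts of its library, scaled between libraries by TMM), or as RPKM (the same CPM per kilobase of merged exons) where genes are set beside each other. The members had from 133 (Tet3) to 23339 (Dnmt3b) counts in a library, so that counting alone gave a coefficient of variation of at most 8.67%, and all 8 passed the filter on low counts in every comparison. The test was the quasi-likelihood F test of edgeR, whose p-values were adjusted over all genes tested by the method of Benjamini and Hochberg (FDR). A gene was called where its FDR was under 0.1 and its log2 fold change beyond 0.5 in either direction. Log2 fold changes carry their standard error after the ± sign. The counts on the targeted genes do not measure the deletions, since reads on the rest of each gene are counted: Neil1 had 2.48 to 31.5 CPM in Neil1 mESCs against 7.63 to 9.85 in control mESCs, Neil2 had 5.50 to 9.54 in Neil2 mESCs against 5.74 to 15.2, and Apex1 had 73.1 to 77.2 in the Apex1 mESCs against 7.76 to 17.8. Of the exon bases of Apex1, 61.7% are shared with Tmem55b on the other strand, and why its counts were higher was not tested. The paper checked the deletions by genotyping PCR, and by western blot for NEIL1 and APEX1 and RT-qPCR for Neil2. The mESC library of Neil1 clone #11 held 0.944% of its counts on chromosome X, where 287 genes had counts against 845 to 911 in the other mESC libraries. No member lies on chromosome X, and values without this library are given where it changes a call. In EBs, chromosome X held 4.39 to 4.57% of counts in Neil1 and 4.07 to 4.49% in Neil2, against 3.50 to 3.61% in control and 3.34 to 3.43% in Apex1. In EBs + RA, Neil1 clone #11 (3.27%) lay below the control libraries (3.42 to 3.54%). The cause of these shares was not tested. Undifferentiated mESC markers (Pou5f1, Nanog, Sox2, Zfp42, Esrrb, Klf4, Tbx3 and Dppa3) summed to 3971 to 4084 CPM in control mESCs, 1773 to 1810.0 in control EBs and 207 to 235 in control EBs + RA, and mesoderm markers (T, Eomes, Mixl1, Kdr and Tbx6) were highest in control EBs, at 255 to 383 CPM.

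On NCBIM37, the build of the files, the members are Tet1 (ENSMUSG00000047146) at chr10:62267318-62361866, Tet2 (ENSMUSG00000040943) at chr3:133126643-133207354, Tet3 (ENSMUSG00000034832) at chr6:83312367-83391672, Dnmt1 (ENSMUSG00000004099) at chr9:20711650-20757317, Dnmt3a (ENSMUSG00000020661) at chr12:3806007-3914443, Dnmt3b (ENSMUSG00000027478) at chr2:153475186-153513466, Dnmt3l (ENSMUSG00000000730) at chr10:77504692-77526367 and Uhrf1 (ENSMUSG00000001228) at chr17:56442744-56462909. Tet1, Tet2, Tet3 and Dnmt1 lie on the reverse strand and the other four on the forward strand. Exons of Dnmt3a share 133 bases (0.8%) with Gm10485 and those of Dnmt3l share 67 bases (2.2%) with Aire, each on the opposite strand, and the libraries were made without strand marking as far as the named kit shows, so that reads there cannot be assigned to one gene.

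The 250 bases before the start sites of 4 members are shown because these genes had the largest and most contrasting changes with retinoic acid, Dnmt3b, Dnmt3l and Tet1 downwards and Tet3 upwards. The sequences are those of RefSeq (table of build GRCm38.p6), each matched NCBIM37 exactly and in 1 place, at chr2:153474935-153475184 for Dnmt3b (forward strand), chr10:77504782-77505031 for the first of 3 start sites of Dnmt3l (forward strand), chr10:62350073-62350322 for Tet1 (reverse strand) and chr6:83391673-83391922 for Tet3 (reverse strand). The Tet1 window lies 11794 bases inside the annotated gene start of NCBIM37, the first Dnmt3l start 340 bases inside, and the windows of Dnmt3b and Tet3 border the annotated start. Each is written 5′ to 3′ on the strand of the gene, with CpG dinucleotides, the substrate of these enzymes, in capitals.
Dnmt3b: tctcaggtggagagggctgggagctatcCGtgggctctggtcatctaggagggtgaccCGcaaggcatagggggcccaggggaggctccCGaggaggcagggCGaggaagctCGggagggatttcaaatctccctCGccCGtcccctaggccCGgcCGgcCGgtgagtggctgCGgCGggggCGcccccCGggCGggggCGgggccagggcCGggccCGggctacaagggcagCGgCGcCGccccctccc
Dnmt3l: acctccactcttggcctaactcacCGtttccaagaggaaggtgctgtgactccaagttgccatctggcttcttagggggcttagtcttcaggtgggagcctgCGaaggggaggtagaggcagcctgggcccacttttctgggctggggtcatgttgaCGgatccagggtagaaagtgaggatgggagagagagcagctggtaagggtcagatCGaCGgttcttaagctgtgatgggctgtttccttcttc
Tet1: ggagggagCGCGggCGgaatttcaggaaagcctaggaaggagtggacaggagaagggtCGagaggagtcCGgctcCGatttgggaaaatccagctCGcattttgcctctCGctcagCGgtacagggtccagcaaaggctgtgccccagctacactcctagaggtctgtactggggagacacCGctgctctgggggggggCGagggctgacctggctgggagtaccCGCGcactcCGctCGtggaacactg
Tet3: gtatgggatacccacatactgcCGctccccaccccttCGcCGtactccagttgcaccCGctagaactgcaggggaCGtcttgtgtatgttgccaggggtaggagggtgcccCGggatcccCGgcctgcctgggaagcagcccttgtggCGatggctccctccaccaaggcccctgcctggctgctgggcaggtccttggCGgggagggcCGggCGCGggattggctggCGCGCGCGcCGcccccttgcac

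The Dnmt3b window held 21 CpG, more than 83.7% of 32851 mouse promoter windows of the same length, whose median was 6. The Tet3 window held 17 and the Tet1 window 15, more than 76.5% and 72.7% of promoters. The windows of Dnmt3l were poor in CpG, with 5 before the first start site and 4 and 3 before the others, fewer than the median promoter. Tet2, with 51 CpG, exceeded 99.9% of promoters. All 8 members had an entry, with 15 start sites in all. The GC box GGGCGG, which contains a CpG, was found 3 times in the Dnmt3b window and 1 time each in those of Tet1 and Tet3, and not in the window of the first Dnmt3l start, on either strand (32.7% of promoters hold it). The retinoic acid receptor half-site AGGTCA was found 1 time in the Tet1 window and in none of the other 3 (14.0% of promoters hold it). These are matches of letters and say nothing of binding.

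In control mESCs the cofactor Dnmt3l and the maintenance genes had the highest levels. Per length, Dnmt3l was the highest member at 204 ± 34.6 RPKM (mean ± SD, n = 3), followed by Uhrf1 at 105 ± 24.0, Dnmt1 at 72.3 ± 8.68 and Dnmt3b at 56.5 ± 13.3. The libraries of Dnmt1 and Dnmt3b overlapped, as did those of the next pair, Tet1 at 18.2 ± 3.84 and Tet2 at 16.8 ± 0.650 RPKM. Dnmt3a (6.84 ± 2.56) and Tet3 (1.39 ± 0.162) were the lowest. The exon length of Dnmt3a is that of all its transcripts merged (16642 bases), which lowers its RPKM against a gene with 1 transcript.

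With differentiation the order of the levels per length turned over. In control EBs, Uhrf1 (88.2 ± 2.88 RPKM), Dnmt3b (83.5 ± 11.1) and Dnmt3l (79.5 ± 5.64) followed each other with overlapping libraries. In control EBs + RA, Dnmt1 (62.5 ± 3.59 RPKM) and Uhrf1 (50.2 ± 3.92) stood above all others, and Dnmt3l (9.63 ± 3.57), Dnmt3b (7.86 ± 0.149) and Dnmt3a (7.53 ± 0.510) lay close together. Tet3 (6.21 ± 0.957 RPKM) was then the highest of the TET genes and Tet1 (1.85 ± 0.201) the lowest.

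**Figure D1:**
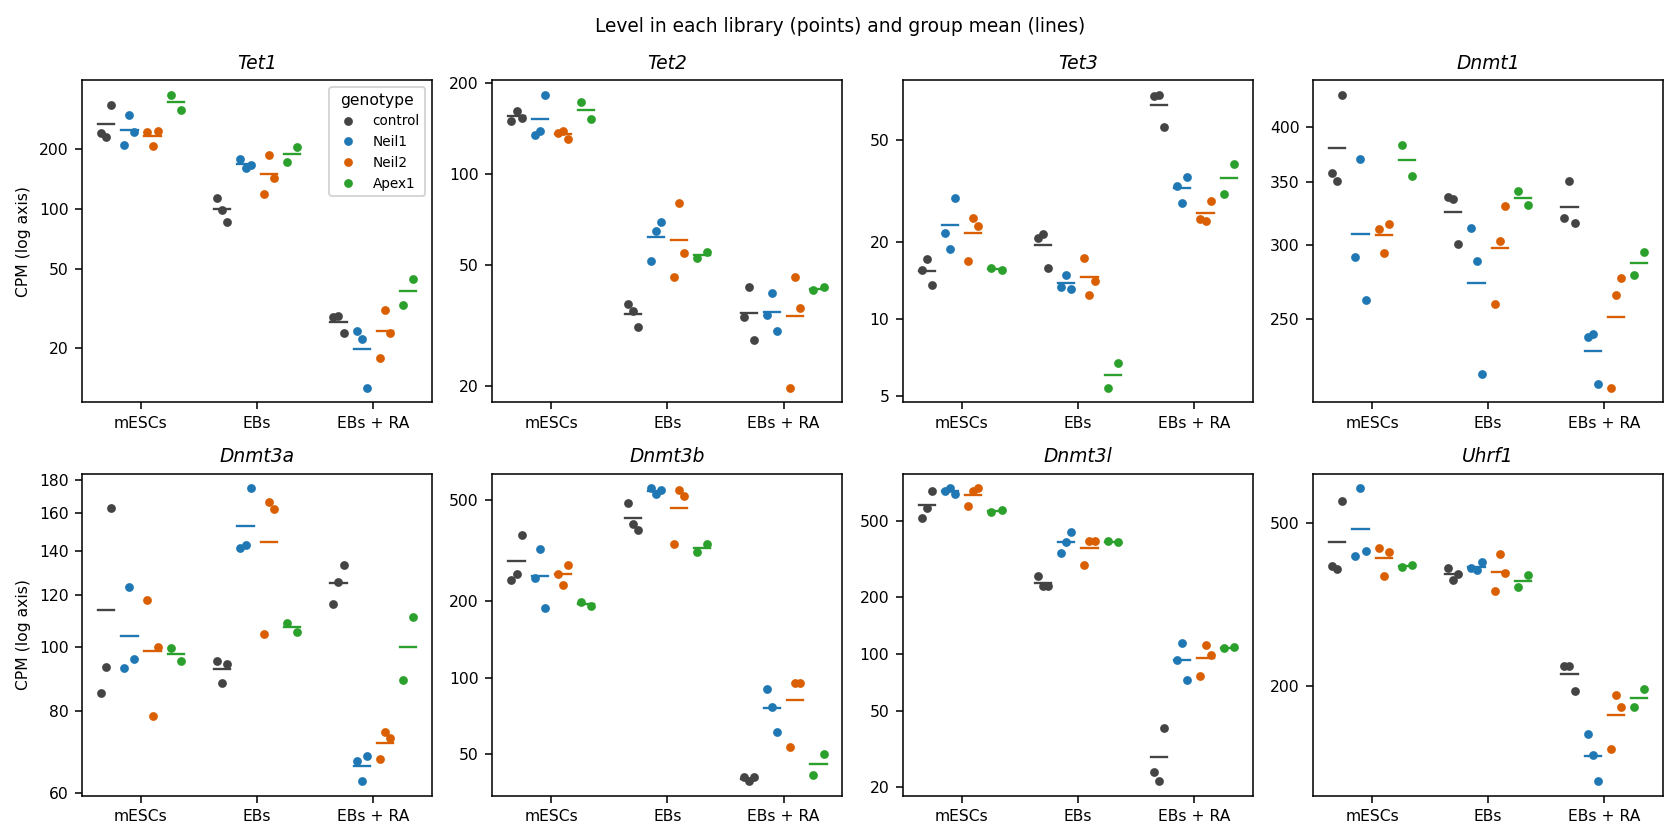
Level of each member in CPM (log axis, its range set for each gene) in every library at the 3 stages, with points for libraries coloured by genotype and lines for group means. Tet1, Dnmt3b and Dnmt3l are lowest in EBs + RA in all genotypes, Tet3 is highest in control EBs + RA (56.5 to 75.2 CPM), and Dnmt1 varies least (212 to 433 CPM over all libraries).

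The step from mESCs to EBs asks how the machinery changes as control cells leave pluripotency. Tet1, Tet2 and Dnmt3l fell in control EBs, and Dnmt3b rose. These were 4 of the 8 members, where 38.7% of all genes tested were called. Tet2 was at 150.1, 162 and 153 CPM in control mESCs and at 37.2, 35.3 and 31.4 in control EBs, 1 value per clone, and the groups did not overlap (log2 fold change −2.18 ± 0.12, FDR 3.44e-06). Of all genes averaging 1 CPM or more, 53.8% had no overlap between these groups. Tet1 went from 242, 229 and 333 to 114, 99.0 and 86.0 CPM, with every EB library below every mESC library (log2 fold change −1.45 ± 0.17, FDR 0.000275).

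Dnmt3l, the cofactor, went from 518, 587 and 721 CPM in control mESCs to 257, 228 and 228 in control EBs, where all 3 clones lay below all 3 mESC libraries (log2 fold change −1.38 ± 0.15, FDR 0.000141). Its catalytic partner Dnmt3b went the other way, from 242, 256 and 366 to 490.5, 404 and 384 CPM, with the lowest EB library just above the highest mESC library (log2 fold change 0.54 ± 0.18, FDR 0.0373). The Dnmt3b call was lost without clone #1 (0.34, FDR 0.316) and without clone #4 (0.52, FDR 0.187). Dnmt3a was at 85.4, 93.4 and 163 CPM in control mESCs, where clone #7 stood apart, and at 95.5, 88.3 and 94.2 in control EBs (log2 fold change −0.32 ± 0.22, FDR 0.287). Tet3 (0.31 ± 0.17, FDR 0.169), Dnmt1 (−0.25 ± 0.13, FDR 0.15) and Uhrf1 (−0.28 ± 0.16, FDR 0.202) did not pass the test.

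Retinoic acid, which directs EBs towards neural fates, gave larger changes in control clones than the step to EBs, except for Tet2 and Dnmt1. Between control EBs and EBs + RA, Tet1, Dnmt3b, Dnmt3l and Uhrf1 fell and Tet3 rose, 5 of 8 members beside 44.1% of all genes tested. Dnmt3b went from 490.5, 404 and 384 CPM to 40.6, 39.2 and 40.5, the largest change of a member in these 2 steps of the control (mESCs to EBs and EBs to EBs + RA; log2 fold change −3.42 ± 0.12, FDR 4.71e-07). The 3 EBs + RA libraries lay within 2 CPM of each other and far below every EB library. Dnmt3l went from 257, 228 and 228 to 23.9, 21.5 and 41.0 CPM (log2 fold change −3.05 ± 0.25, FDR 3.83e-05), and clone #7, the lowest in EBs, was the highest in EBs + RA.

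The TET genes went in different directions with retinoic acid. Tet1 went from 114, 99.0 and 86.0 to 28.7, 29.1 and 23.8 CPM in the control clones (log2 fold change −1.88 ± 0.14, FDR 1.31e-05). Tet3 went from 20.8, 21.5 and 15.9 to 74.6, 75.2 and 56.5 CPM, with no overlap (log2 fold change 1.81 ± 0.16, FDR 3.4e-05). Of all genes averaging 1 CPM or more, 60.9% had no overlap between these groups. Tet2 was at 33.8, 42.5 and 28.4 CPM in control EBs + RA, overlapping the EBs (log2 fold change 0.00 ± 0.16, FDR 0.999, 95% interval −0.35 to 0.35). Tet3 thus made up 52.4 ± 1.91% of the summed TET level per length in control EBs + RA (mean ± SD), against 14.2 ± 1.12% in control EBs and 3.87 ± 0.750% in control mESCs, while the sum itself was 11.8 ± 1.84, 12.3 ± 1.495 and 36.4 ± 3.48 RPKM.

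Dnmt3a, the second de novo enzyme, was at 95.5, 88.3 and 94.2 CPM in control EBs and at 116, 126 and 134 in control EBs + RA, without overlap. Its log2 fold change of 0.43 ± 0.10 (FDR 0.00549) was under the fold limit, which it passed without clone #1 (0.51, FDR 0.0335). The ratio of Dnmt3b to Dnmt3a per length was 8.51 ± 1.03 in control mESCs, 15.0 ± 1.73 in control EBs and 1.05 ± 0.0780 in control EBs + RA. Uhrf1 went from 388, 364 and 375 to 224, 224 and 195 CPM (log2 fold change −0.82 ± 0.09, FDR 0.000128), while Dnmt1, which it recruits, was at 338, 336 and 301 and 320.2, 351 and 317 CPM (log2 fold change 0.01 ± 0.09, FDR 0.947, 95% interval −0.20 to 0.22). Counting the mutants too, all 9 clones of control, Neil1 and Neil2 had less Tet1, Dnmt3b, Dnmt3l and Uhrf1 and more Tet3 in EBs + RA than in EBs. So did both technical duplicates of the 1 Apex1 clone, whose stages were matched by number only. Dnmt3a was higher in all control clones and lower in all Neil1 and Neil2 clones, and the Apex1 duplicates were at −0.28 and 0.07 on the log2 scale.

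In bulk RNA, fewer cells of a type and less RNA per cell cannot be told apart. In the same control libraries, all 8 undifferentiated mESC markers fell with retinoic acid (median −3.90, against 0.01 over all genes tested) and 5 of 5 tested neuroectoderm markers (Pax6, Nes, Tubb3, Neurog1 and Pax3, with no row named Sox1) rose. Between mESCs and EBs, 6 of 8 undifferentiated mESC markers fell and 1 rose, and 4 of 5 mesoderm and 5 of 5 endoderm markers rose. The part of cell composition in the changes of the members was not tested.

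In mESCs, the question was whether loss of a base excision repair enzyme goes with another level of the methylation machinery in undifferentiated cells. No member was called in Neil1, Neil2 or Apex1 mESCs by edgeR, beside 1.82%, 1.83% and 16.9% of all genes tested. At an unadjusted p under 0.05 there were 1, 2 and 1 members, and DESeq2 called 1, 0 and 1. Tet3 was at 21.7, 18.9 and 29.6 CPM in Neil1 mESCs, all above the control libraries at 15.6, 17.1 and 13.6 (log2 fold change 0.58 ± 0.19, FDR 0.216), and this is the member that DESeq2 called. Without the library of clone #11 its log2 fold change was 0.39, FDR 0.399. In Neil2 mESCs Tet3 was at 16.9, 24.9 and 23.2 CPM (log2 fold change 0.47 ± 0.17, FDR 0.257), which overlapped the control. Of all genes averaging 1 CPM or more, 21.2%, 23.2% and 53.2% had no overlap with control in Neil1, Neil2 and Apex1 mESCs.

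Dnmt3b was at 198 and 192 CPM in the 2 Apex1 mESC libraries, both below the control libraries at 242, 256 and 366 (log2 fold change −0.59 ± 0.21, FDR 0.108), and was called by DESeq2. In these libraries 2 of 8 undifferentiated mESC markers were lower, with sums of 3279 to 3310.0 CPM against 3971 to 4084, and their part in the value was not tested. Dnmt1 was at 312, 294 and 316 CPM in Neil2 mESCs, below all 3 controls (log2 fold change −0.33 ± 0.13, FDR 0.272). In the control mESC library of clone #7, Tet1, Dnmt1, Dnmt3a, Dnmt3b, Dnmt3l and Uhrf1 were higher than in clones #1 and #4, and without it Tet1 was called in Apex1 mESCs (0.53, FDR 0.000105). The 95% intervals of the log2 fold changes over the members ran from −0.76 to 1.03 for Neil1, −0.81 to 0.86 for Neil2 and −1.08 to 0.80 for Apex1.

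In EBs, Tet1, Tet2 and Dnmt3l were higher than in control EBs in all 3 mutants, Dnmt3a was higher in the Neil1 and Neil2 mutants, and Tet3 was lower in the Apex1 cells. These were 4 calls in Neil1 EBs (23.5% of all genes tested were called), 4 in Neil2 EBs (16.3%) and 4 in Apex1 EBs (25.8%). The 3 comparisons share the control libraries, so that their common direction is not independent. The median log2 fold change of the members was 0.53 in Neil1, 0.38 in Neil2 and 0.13 in Apex1 EBs, against 0.00, 0.02 and 0.00 over all genes tested.

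**Figure D2:**
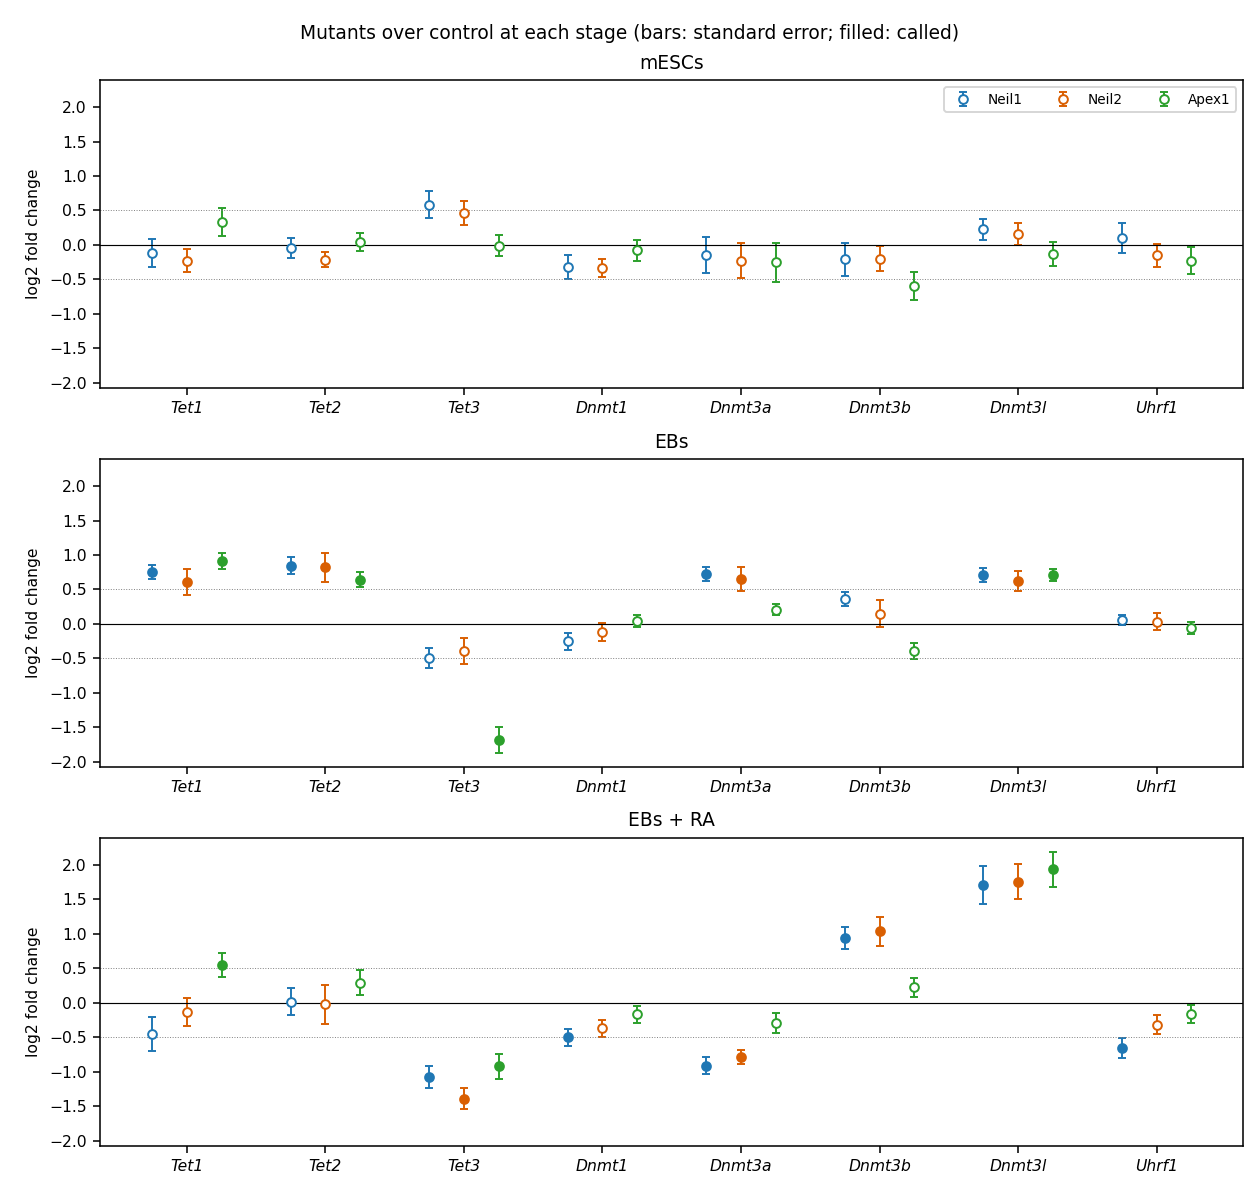
Log2 fold change of each member in each mutant over control at the 3 stages, with bars for the standard error, filled points for called members and dotted lines at the fold limit of 0.5. No point is filled in mESCs, Tet1, Tet2 and Dnmt3l are filled above 0 for all mutants in EBs, and Tet3 is filled below 0 and Dnmt3l above 0 for all mutants in EBs + RA.

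Of the erasers in EBs, Tet1 was at 177, 161 and 167 CPM in Neil1 (log2 fold change 0.76 ± 0.10, FDR 0.000404), at 119.7, 187 and 143 in Neil2 (0.61 ± 0.18, FDR 0.0677) and at 172 and 204 in Apex1 libraries (0.91 ± 0.12, FDR 0.00042), against 114, 99.0 and 86.0 in control EBs. Every mutant library lay above every control library. Of all genes averaging 1 CPM or more, 45.6%, 33.9% and 60.2% had no overlap with control in Neil1, Neil2 and Apex1 EBs, in either direction. Tet2 behaved alike, at 51.6, 64.7 and 69.5 CPM in Neil1 (log2 fold change 0.84 ± 0.12, FDR 0.000627), 45.8, 80.4 and 55.1 in Neil2 (0.82 ± 0.21, FDR 0.0341) and 52.9 and 55.4 in Apex1 EBs (0.64 ± 0.11, FDR 0.00125), against 37.2, 35.3 and 31.4. Tet3 was at 5.39 and 6.71 CPM in Apex1 EBs, below every other library of the series, against 20.8, 21.5 and 15.9 in control EBs (log2 fold change −1.68 ± 0.19, FDR 0.000119). In Neil1 EBs Tet3 was at 13.3, 14.9 and 13.1 CPM, below all controls, with a log2 fold change of −0.49 ± 0.15 (FDR 0.0297) just under the fold limit, which it passed without control clone #7 (−0.62, FDR 0.00767) or Neil1 clone #9 (−0.55, FDR 0.0515). In Neil2 EBs its log2 fold change was −0.40 ± 0.19, FDR 0.223, and without Neil2 clone #1 it was called (−0.56, FDR 0.0437).

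Of the writers in EBs, Dnmt3l was at 339, 388 and 437 CPM in Neil1 (log2 fold change 0.71 ± 0.10, FDR 0.000529), 296, 396 and 393 in Neil2 (0.62 ± 0.15, FDR 0.0279) and 392 and 389 in Apex1 EBs (0.71 ± 0.09, FDR 0.000211), all above the control libraries at 257, 228 and 228. Dnmt3a was at 142, 143 and 175 CPM in Neil1 EBs (log2 fold change 0.73 ± 0.10, FDR 0.000354) and at 105, 166 and 162 in Neil2 EBs (0.65 ± 0.18, FDR 0.0451), against 95.5, 88.3 and 94.2 in control. In Apex1 EBs Dnmt3a was at 109 and 106 (0.21 ± 0.09, FDR 0.0894), under the fold limit. Dnmt3b was at 558, 532 and 549.6 CPM in Neil1 and at 314 and 336 in Apex1 EBs, above and below the control libraries at 490.5, 404 and 384, with log2 fold changes of 0.36 ± 0.10 and −0.39 ± 0.11 (FDR 0.0183 and 0.0214) that were under the fold limit. Of the maintenance genes, Dnmt1 lay between −0.25 and 0.05 and Uhrf1 between −0.06 and 0.06 on the log2 scale over the 3 mutants, with no call.

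The calls in Apex1 EBs held in each fit that left out a control library. Apex1 is 1 clone, so that their dependence on the clone was not tested. The calls in Neil1 EBs held in every fit that left out 1 library, each of a different clone. Those in Neil2 EBs did not: no member was called without control clone #4 or without control clone #7, 1 without Neil2 clone #14, 2 without control clone #1, 3 without Neil2 clone #11 and 5 without Neil2 clone #1. The log2 fold changes stayed above 0 in these fits, at 0.41 to 0.72 for Tet1, 0.55 to 0.96 for Tet2, 0.53 to 0.82 for Dnmt3a and 0.54 to 0.73 for Dnmt3l. Neil2 clone #1 was the lowest of the Neil2 EB libraries for Tet1, Tet2, Dnmt3a, Dnmt3b and Dnmt3l.

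In the same EB libraries, 7, 5 and 4 of 8 undifferentiated mESC markers were higher in Neil1, Neil2 and Apex1 than in control EBs (1 was lower in Apex1), with summed levels of 2621 to 3065, 2033 to 3117 and 2788 to 2966 CPM against 1773 to 1810.0. Mesoderm markers summed to 26.2 to 48.9, 35.5 to 42.6 and 113 to 135 CPM against 255 to 383, with 5, 4 and 4 of 5 lower. Endoderm markers summed to 42.7 to 49.1 CPM in Apex1 EBs against 179 to 326, with 4 of 5 lower. Trophoblast markers summed to 4.63 to 21.8, 2.84 to 6.35 and 9.89 to 12.0 against 50.9 to 84.4, with 1, 1 and 2 of 4 lower and 1 higher in Neil1. Primed epiblast markers summed to 146 to 171, 147 to 168 and 136 to 153 CPM against 68.3 to 85.6, with 1, 1 and 2 of 2 tested higher. None of these markers was at 0 throughout a group, and their part in the levels of the members was not tested.

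In EBs + RA, the 3 mutants had less Tet3 and more Dnmt3l than control EBs + RA. Also called were less Dnmt3a and more Dnmt3b in the Neil1 and Neil2 mutants. Less Uhrf1 and Dnmt1 was called in the Neil1 mutants only, and more Tet1 in the Apex1 cells only. These were 6, 4 and 3 calls in Neil1, Neil2 and Apex1, beside 41.1%, 34.9% and 24.8% of all genes tested. The Neil1 and Neil2 mutants thus differed from control in opposite directions for the 2 de novo enzymes. The median log2 fold change of the members was −0.48, −0.23 and 0.03, against 0.00, 0.00 and −0.02 over all genes tested.

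Dnmt3l had the largest differences. It was at 92.8, 114 and 73.2 CPM in Neil1 (log2 fold change 1.71 ± 0.28, FDR 0.00283), 76.8, 112 and 99.0 in Neil2 (1.76 ± 0.26, FDR 0.00201) and 107 and 109 in Apex1 EBs + RA (1.94 ± 0.25, FDR 0.00223), against 23.9, 21.5 and 41.0 in control EBs + RA. All mutant libraries lay above all control libraries. Of all genes averaging 1 CPM or more, 53.4%, 49.3% and 52.8% had no overlap with control in Neil1, Neil2 and Apex1 EBs + RA, in either direction. Dnmt3b was at 90.6, 77.03 and 61.4 CPM in Neil1 (log2 fold change 0.94 ± 0.16, FDR 0.00384) and 53.2, 95.8 and 95.5 in Neil2 EBs + RA (1.04 ± 0.21, FDR 0.00772), above the control libraries at 40.6, 39.2 and 40.5, whereas the Apex1 libraries at 41.5 and 50.3 lay just above them (0.22 ± 0.14, FDR 0.281). Dnmt3a was at 67.2, 62.7 and 68.5 CPM in Neil1 (log2 fold change −0.91 ± 0.12, FDR 0.00122) and 67.8, 74.3 and 72.9 in Neil2 EBs + RA (−0.79 ± 0.11, FDR 0.00152), below every control library at 116, 126 and 134, and at 89.4 and 111 in Apex1 EBs + RA (−0.29 ± 0.14, FDR 0.178).

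Tet3, the TET gene that rose with retinoic acid in control cells, was at 33.01, 28.4 and 36.0 CPM in Neil1 (log2 fold change −1.08 ± 0.16, FDR 0.00216), 24.5, 24.2 and 28.9 in Neil2 (−1.39 ± 0.15, FDR 0.000662) and 30.8 and 40.2 in Apex1 EBs + RA (−0.92 ± 0.18, FDR 0.0112), against 74.6, 75.2 and 56.5 in control. No mutant library reached the lowest control library. The Apex1 call was lost without the first Apex1 library (−0.75, FDR 0.146). Tet1 was at 33.05 and 44.5 CPM in Apex1 EBs + RA, above the control libraries at 28.7, 29.1 and 23.8 (log2 fold change 0.54 ± 0.17, FDR 0.0609), a call that held in 1 of 5 fits that left out a library (0.31 to 0.74), the one without control clone #4. It was lost without control clone #1 (0.58, FDR 0.133), control clone #7 (0.45, FDR 0.0346) or the first (0.74, FDR 0.111) or second Apex1 library (0.31, FDR 0.382). Tet1 in Neil1 (−0.45 ± 0.25, FDR 0.177) and Neil2 EBs + RA (−0.14 ± 0.21, FDR 0.642) and Tet2 in all 3 mutants (0.02, −0.02 and 0.29 on the log2 scale) were not called.

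Of the maintenance genes, Uhrf1 was at 152, 136 and 117 CPM in Neil1 EBs + RA, below every control library at 224, 224 and 195 (log2 fold change −0.66 ± 0.14, FDR 0.00969). It was at 140.4, 190.0 and 178 CPM in Neil2 (−0.32 ± 0.14, FDR 0.108) and 177 and 197 in Apex1 EBs + RA (−0.16 ± 0.13, FDR 0.405). The Neil2 libraries too lay below every control library, and those of Apex1 overlapped the control. Dnmt1 was at 239, 241 and 213 CPM in Neil1 EBs + RA, below the control libraries at 320.2, 351 and 317 (log2 fold change −0.50 ± 0.12, FDR 0.0162). This call lies at the fold limit and was lost without control clone #4 (−0.46, FDR 0.0726), without Neil1 clone #11 (−0.45, FDR 0.0262), with DESeq2 (−0.48, FDR 0.00312) and with RLE size factors (−0.48, FDR 0.0178). Dnmt1 was at 211.5, 265.3 and 276.5 CPM in Neil2 and 278.7 and 294.9 in Apex1 EBs + RA, also below every control library, without a call. Of all genes averaging 1 CPM or more, 27.9% and 29.1% lay below control without overlap in Neil2 and Apex1 EBs + RA. Proliferation genes, with which both maintenance genes are known to rise and fall, summed to 1517 to 2098 CPM in Neil1, 1949 to 2362 in Neil2 and 2452 to 2565 in Apex1 EBs + RA against 2530.0 to 2961 in control, with 5, 2 and 0 of 9 lower. Of all genes tested, 19.9%, 16.6% and 10.9% were called lower in these comparisons. The part of the proliferation genes in the result was not tested.

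The composition of the family in EBs + RA also differed from control. Per length, Tet3 made up 36.5 ± 6.83% of the TET sum in Neil1, 31.7 ± 8.06% in Neil2 and 30.7 ± 2.12% in Apex1 EBs + RA, all libraries being below the lowest control library at 50.7%. The ratio of Dnmt3b to Dnmt3a was 3.77 ± 0.763, 3.68 ± 0.969 and 1.49 ± 0.0268, against 1.05 ± 0.0780 in control. Dnmt3l per summed Dnmt3a and Dnmt3b was 1.66 ± 0.326, 1.61 ± 0.170 and 2.43 ± 0.317, against 0.622 ± 0.209 (mean ± SD). These ratios were not tested apart from the genes they are made of.

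**Figure D3:**
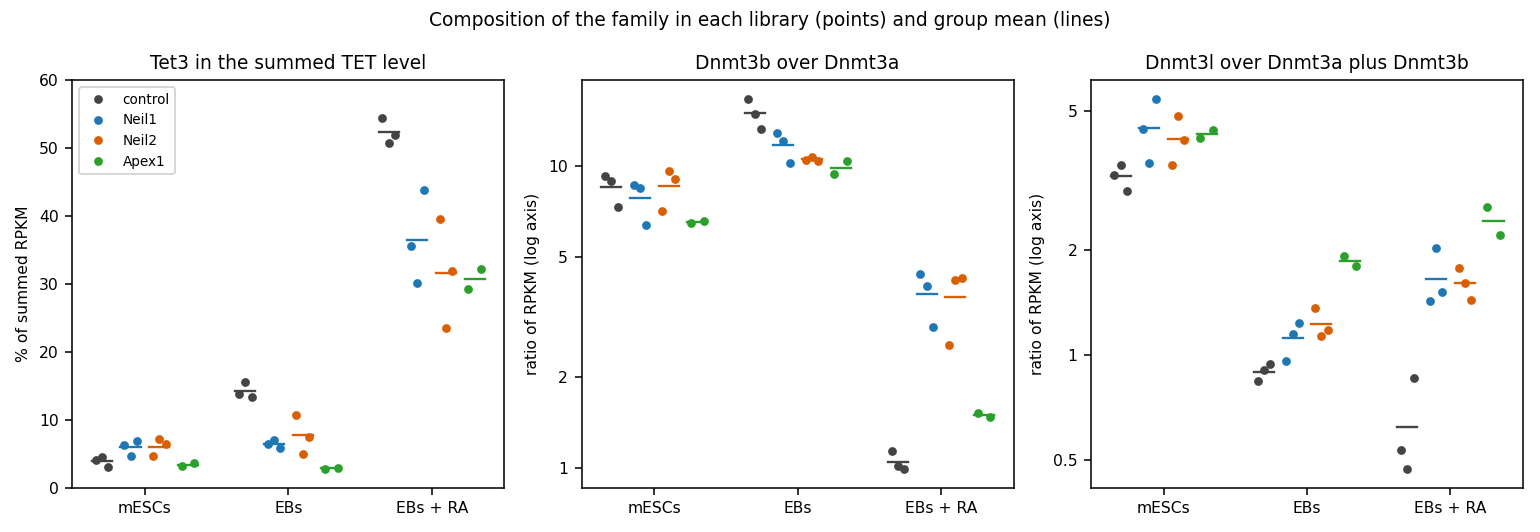
Share of Tet3 in the summed RPKM of the TET genes (%), ratio of Dnmt3b to Dnmt3a and ratio of Dnmt3l to Dnmt3a plus Dnmt3b (both on log axes) in every library, with points for libraries coloured by genotype and lines for group means. In EBs + RA the control libraries lie at 50.7 to 54.5% for Tet3 and at 0.989 to 1.14 for Dnmt3b to Dnmt3a, apart from all mutant libraries.

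In the same EBs + RA libraries, 5 of 5 tested neuroectoderm markers were lower in each mutant, with summed levels of 35.6 to 49.8 CPM in Neil1, 36.6 to 47.2 in Neil2 and 64.5 to 70.6 in Apex1 against 242 to 437 in control. Undifferentiated mESC markers were higher for 7, 7 and 6 of 8 (1 was lower in Neil1), with sums of 373 to 488, 284 to 695 and 758 to 907 CPM against 207 to 235. Endoderm markers summed to 297 to 720.2 CPM in Neil1 EBs + RA against 129 to 334 (3 of 5 higher), macrophage markers to 42.0 to 94.4 in Neil1 and 27.4 to 37.4 in Neil2 against 14.0 to 21.5 (2 of 2 tested higher in both), and germ cell markers to 87.1 to 156, 149 to 168 and 104 to 108 against 40.0 to 51.9 (2, 4 and 4 of 5 higher). Primed epiblast markers were below 4 CPM in sum in all EBs + RA, and of them Pou3f1 was at 0 in the control libraries. The part of these markers in the levels of the members was not tested.

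Whether the change between stages itself differed between a mutant and the control was tested by an interaction term, called at an FDR below 0.1. Within the mutants, 6, 6 and 5 of 8 members were called between mESCs and EBs in Neil1, Neil2 and Apex1 cells (27.8%, 28.6% and 30.8% of all genes tested). The rise of Dnmt3a in Neil1 cells (0.59 ± 0.21, FDR 0.0498) was lost without clone #11 (0.40, FDR 0.32) and without clone #7 (0.55, FDR 0.199). In Neil2 cells, without clone #14 there were 3, without clone #11 there were 4, and without the first or second Apex1 library there were 2 and 3 in Apex1 cells. Between mESCs and EBs, Tet2 fell less in every mutant than in control. Its log2 fold change was −1.26 ± 0.14 in Neil1, −1.14 ± 0.17 in Neil2 and −1.59 ± 0.12 in Apex1 cells, against −2.18 ± 0.12 in control, and the differences were 0.90 ± 0.19, FDR 0.0134, 1.02 ± 0.24, FDR 0.024 and 0.56 ± 0.15, FDR 0.0239. Tet3 fell by group in every mutant (−0.72 ± 0.18, −0.55 ± 0.19 and −1.37 ± 0.20), where control was at 0.31 ± 0.17, with differences of −1.06 ± 0.25, FDR 0.0211, −0.88 ± 0.27, FDR 0.0686 and −1.71 ± 0.25, FDR 0.00107. In Neil2 cells the Tet3 libraries of the 2 stages overlapped, and clone #1 had a log2 ratio of 0.03. Tet1 fell less in Neil1 (0.89 ± 0.24, FDR 0.0393) and Neil2 cells (0.82 ± 0.26, FDR 0.0853), Dnmt3l fell less in Apex1 cells (0.81 ± 0.19, FDR 0.0131) and Dnmt3a had a positive difference in Neil1 cells (0.88 ± 0.30, FDR 0.0988). These were 4, 3 and 3 of 8 members in Neil1, Neil2 and Apex1, beside 10.4%, 10.4% and 29.5% of all genes tested.

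Since the same clones stood at both stages, the tests were also fitted with the clone as a block. The differences of Tet1 (0.89, FDR 0.109) and Dnmt3a (0.83, FDR 0.149) in Neil1 and those of Tet1 (0.78, FDR 0.223) and Tet3 (−0.87, FDR 0.152) in Neil2 cells were then not called, which left 2 and 1 members. The rise of Dnmt3a between Neil2 mESCs and EBs (0.57 ± 0.24, FDR 0.0897) was likewise lost with the block (0.56, FDR 0.142). Without Neil1 clone #11, whose mESC library lacked counts on most of chromosome X, the Neil1 difference was 0.95, FDR 0.0152 for Tet2, −0.83, FDR 0.0839 for Tet3, 0.86, FDR 0.119 for Tet1 and 0.71, FDR 0.305 for Dnmt3a, and Tet1 and Dnmt3a were not called. Without Neil1 clone #7, 2 members were called. For Neil2, no member was called without control clone #4, 1 without control clone #1, Neil2 clone #11 or Neil2 clone #14, 2 without control clone #7 and 4 without Neil2 clone #1. For Apex1, 1 member (Tet3) was called without either of its libraries.

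**Figure D4:**
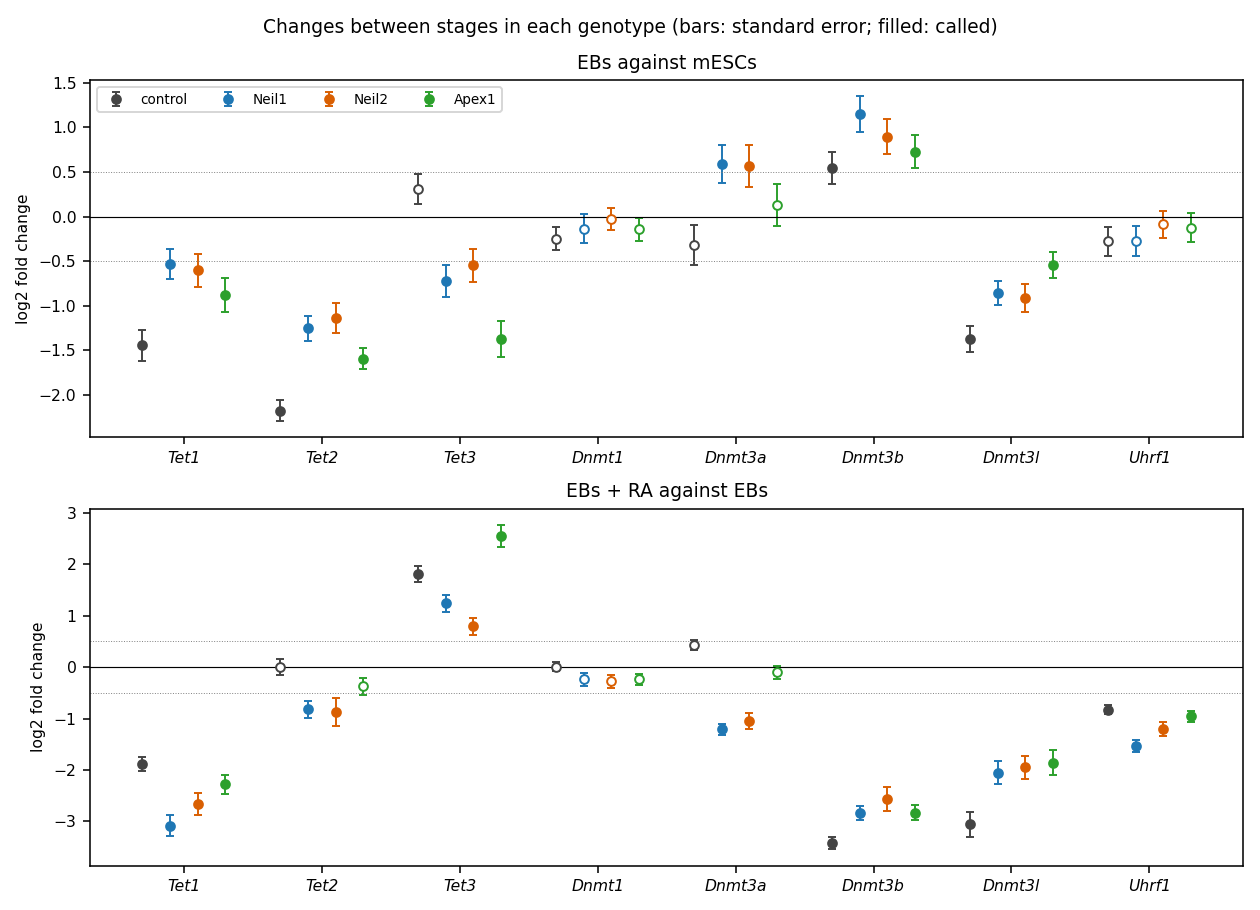
Log2 fold change of each member from mESCs to EBs and from EBs to EBs + RA within each genotype, with bars for the standard error, filled points for called members and dotted lines at the fold limit of 0.5 (the y axes differ). Control is lowest for Tet1, Tet2 and Dnmt3l in the first step, and in the second step Dnmt3a is filled below 0 in Neil1 and Neil2 only, where control is at 0.43.

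Between EBs and EBs + RA, 7, 7 and 5 of 8 members were called within Neil1, Neil2 and Apex1 cells (53.6%, 44.7% and 44.4% of all genes tested). Dnmt3a had the largest difference of response. It fell with retinoic acid in Neil1 (−1.21 ± 0.11, FDR 1.66e-06) and Neil2 cells (−1.04 ± 0.15, FDR 0.000145), where control cells were at 0.43 ± 0.10 and Apex1 cells at −0.10 ± 0.12. The differences from control were −1.62 ± 0.15, FDR 2.48e-05 in Neil1, −1.46 ± 0.22, FDR 0.000976 in Neil2 and −0.51 ± 0.16, FDR 0.0575 in Apex1 cells. Dnmt3b and Dnmt3l fell less in all mutants, with differences of 0.59 ± 0.19, FDR 0.0384, 0.87 ± 0.31, FDR 0.0933 and 0.60 ± 0.17, FDR 0.047 for Dnmt3b and of 1.01 ± 0.31, FDR 0.0321, 1.11 ± 0.31, FDR 0.0381 and 1.21 ± 0.30, FDR 0.0294 for Dnmt3l. Tet3 rose less in Neil1 (−0.57 ± 0.22, FDR 0.0816) and Neil2 cells (−1.01 ± 0.24, FDR 0.0162) and more in Apex1 cells (0.75 ± 0.27, FDR 0.0957). Among EBs without retinoic acid, which were harvested on the same day as the EBs + RA, Apex1 had the lowest Tet3 level. Tet1 (−1.19 ± 0.27, FDR 0.00846), Tet2 (−0.81 ± 0.23, FDR 0.0265) and Uhrf1 (−0.70 ± 0.15, FDR 0.0064) had more negative changes in Neil1 cells than in control. These were 7, 4 and 4 of 8 members, beside 32.2%, 15.4% and 16.5% of all genes tested.

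EBs and EBs + RA of a clone came from the same culture, which was divided on day 4. With the clone as a block, 7 members were called in Neil2 cells, adding Tet1 (−0.77, FDR 0.00385), Tet2 (−0.88, FDR 0.011) and Uhrf1 (−0.37, FDR 0.0942), and 5 in Apex1 cells, adding Tet1 (−0.40, FDR 0.0631), where the block is the number of the duplicate. In Neil1 cells the 7 calls stayed, with Dnmt3a at −1.61, FDR 0.00018 and Dnmt3l at 1.06, FDR 0.0254. Leaving out 1 clone changed the counts. The Neil1 count was 4 without control clone #1, 3 without control clone #4, 5 without Neil1 clone #7, 4 without Neil1 clone #9 and 7 without control clone #7 or Neil1 clone #11. The Neil2 count was 2 without control clone #1, control clone #4 or Neil2 clone #14, 3 without control clone #7, 4 without Neil2 clone #11 and 5 without Neil2 clone #1. The Apex1 count was 0 without control clone #1 or either Apex1 library, 1 without control clone #4 and 5 without control clone #7. Across these fits the Dnmt3a difference ran from −1.71 to −1.55 in Neil1 and −1.56 to −1.36 in Neil2 cells and was called in each of the 6 fits of both.

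Neil1 and Neil2 mutants were also compared with each other, which uses no control library. edgeR called no member at any stage, none was at an unadjusted p under 0.05, and DESeq2 called none. Over all genes tested 0.00% were called at each stage by edgeR, with 915, 735 and 1608 genes at an unadjusted p under 0.05, and DESeq2 called 3, 1 and 108 genes in mESCs, EBs and EBs + RA. The 95% intervals of the log2 difference (Neil1 over Neil2) ran, over the members, from −0.43 to 0.61 in mESCs, from −0.50 to 0.63 in EBs and from −0.93 to 0.73 in EBs + RA. For Dnmt3a in EBs + RA the interval was −0.36 to 0.18 and for Dnmt3l −0.47 to 0.45, with bounds nearer to 0 than the log2 fold change of either mutant from control. For Tet3 in EBs + RA the difference was 0.35 ± 0.16 (FDR 0.486, interval 0.00 to 0.71).

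Genes that act beside the members were taken from 3 lists. In Neil1, Neil2 and Apex1 mESCs, 1.82%, 1.83% and 16.9% of all genes tested were called, against which the mESC counts of the lists stand. The other counts of called genes in these lists stand against 38.7% and 44.1% of all genes tested in the steps from control mESCs to EBs and from EBs to EBs + RA. In Neil1, Neil2 and Apex1 EBs they stand against 23.5%, 16.3% and 25.8%, and in EBs + RA against 41.1%, 34.9% and 24.8%. Of 15 genes of the TDG and base excision steps, 1 rose and 2 fell between control mESCs and EBs, and 2 rose and 4 fell with retinoic acid, among them Smug1 (2.19 ± 0.16, FDR 1.51e-05), a uracil and hydroxymethyluracil glycosylase, and Ung (−1.40 ± 0.11, FDR 1.69e-05), a uracil glycosylase. In EBs + RA, 2 were higher and 6 lower in Neil1, 1 and 3 in Neil2 and 3 and 3 in Apex1 cells. Smug1 was lower in Neil1 (−2.12 ± 0.19, FDR 0.000238) and Neil2 EBs + RA (−1.95 ± 0.18, FDR 0.000401). So was Apex1 (−1.24 ± 0.26, FDR 0.00838 and −1.21 ± 0.19, FDR 0.00283), of whose exon bases 61.7% are shared with Tmem55b on the other strand. Tdg, which excises the oxidised cytosines that TET enzymes make and is named here after its values were seen, was lower in Neil1 (−0.81 ± 0.15, FDR 0.00441) and Neil2 EBs + RA (−0.74 ± 0.13, FDR 0.00403). In EBs, 0 were higher and 1 lower in Neil1, 1 and 0 in Neil2 and 4 and 1 in Apex1 cells. These counts include the mutated genes themselves, with Neil1 lower in Neil1 EBs (−1.18 ± 0.45, FDR 0.0869) and Apex1 higher in Apex1 EBs (2.33 ± 0.16, FDR 1.49e-05). In mESCs, 0, 0 and 1 were higher and none lower. The medians over the list in EBs + RA were −0.13, −0.16 and 0.03.

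Of 15 partners and regulators of the DNMTs, 2 rose and 4 fell between control mESCs and EBs, and 1 rose and 8 fell with retinoic acid. In the first step Zfp57 (−1.44 ± 0.12, FDR 2.78e-05), which keeps methylation at imprinted loci, fell and Uhrf2 (1.05 ± 0.12, FDR 0.000245), the paralog of Uhrf1, rose. The falls with retinoic acid included Prdm14 (−4.54 ± 0.27, FDR 5.48e-06), a repressor of the de novo methyltransferase genes in mESCs, and Dppa3 (−3.69 ± 0.29, FDR 3.22e-05), a protein that shields DNA from UHRF1-dependent methylation. In mutant EBs + RA, Prdm14 was higher in Neil1 (1.91 ± 0.39, FDR 0.00715), Neil2 (2.28 ± 0.72, FDR 0.041) and Apex1 cells (3.13 ± 0.36, FDR 0.00148), and so was Dppa3 (1.29, 1.80 and 2.56), which also counts among the undifferentiated mESC markers. In all, 2 were higher and 3 lower in Neil1, 2 and 1 in Neil2 and 3 and 1 in Apex1 EBs + RA, with list medians of −0.25, −0.23 and 0.03. In EBs, 2 were higher and 1 lower in Neil1, 1 and 1 in Neil2 and 1 and 0 in Apex1, and in mESCs 2 were lower in Apex1 and none was called in Neil1 or Neil2.

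Of 7 TET partners and cofactor enzymes, 3 rose and 0 fell between control mESCs and EBs, and 2 rose and 2 fell with retinoic acid. Cxxc4, a CXXC protein linked to TET2, rose with retinoic acid (4.10 ± 0.35, FDR 2.79e-05), whereas Lin28a (−2.01 ± 0.12, FDR 6.14e-06) and Sall4 (−1.86 ± 0.16, FDR 4.06e-05), both genes of pluripotent cells, fell. In EBs + RA, Cxxc4 was lower in Neil1 (−4.38 ± 0.45, FDR 0.000439) and Neil2 cells (−3.73 ± 0.53, FDR 0.00185). In all, 2 of the list were higher and 4 lower in Neil1, 2 and 3 in Neil2 and 1 and 0 in Apex1 EBs + RA, and 0, 2 and 1 were higher with none lower in EBs, the one in Apex1 being Cxxc4 (2.11 ± 0.31, FDR 0.000613). In mESCs, of 6 tested in Neil1 and Neil2 and 7 in Apex1, 1 was higher in Neil2 and 1 lower in Apex1. Over the 3 lists the medians of all genes tested lay between −0.02 and 0.02 in these comparisons.

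The genes whose profile lay nearest to each member were found by the root mean square difference of log2 CPM over the 33 libraries, each profile centred on its mean, among 11219 genes averaging 5 CPM or more, for members whose group means spanned at least 2 on the log2 scale. They were Phc1 (0.35) and Nmnat2 (0.39) for Tet1, Sntb2 (0.32) and Ino80 (0.34) for Tet2, Top2b (0.40) and Ncs1 (0.41) for Tet3, Rbpms2 (0.40) and Grhl2 (0.41) for Dnmt3b, and Tcfcp2l1 (0.33) and Apobec3 (0.35) for Dnmt3l. Members were not compared with each other. The group means of Dnmt3l spanned 4.70, of Tet1 4.17, of Dnmt3b 3.77, of Tet3 3.49 and of Tet2 2.34 on the log2 scale, and those of Uhrf1 (1.83), Dnmt3a (1.2) and Dnmt1 (0.71) less than 2, so that no near gene is given for them.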

How the data were processed

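RNA-seq counts per gene of 33 libraries were used as deposited by the authors. According to the labels, the study's methods and the submitters' processing notes, libraries were made with a TruSeq v2 kit, reads were aligned to NCBIM37/mm9 with TopHat2 2.0.9 and Bowtie2 2.1.0 and counted with HTSeq 0.5.4. The strand setting was not given in the sources used here. The summary rows of HTSeq (21.8 to 30.4% of reads, of which reads aligned in several places were 11.4 to 19.9% of all) were left out. Gene names and positions came from GENCODE M1 on NCBIM37, which named 37205 of 37991 genes. Promoter sequences came from the RefSeq table.

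The groups follow the labels. The 8 members and the lists of pathway genes, readers of methylated DNA, germline genes, proliferation genes and cell type markers were chosen with earlier results of these data known. From a list, at most 2 called genes per direction and comparison are named, those with the largest change, besides the mutated genes. The values of 1 listed gene are not reported here. edgeR 4.0.16 in R 4.3.3 was fitted on the libraries of each comparison (filterByExpr, TMM, robust quasi-likelihood, Benjamini-Hochberg over all genes tested), in 26 comparisons. Interactions and stage changes of mutants came from fits of 4 groups. Levels are CPM with TMM over all 33 libraries. The alternatives were DESeq2 1.42.0, scaling by RLE, all genes with any count kept, 1 fit of all 12 groups, blocks, and leaving out each library or clone. Fits were checked on simulated counts in which 200 genes were changed by 1 on the log2 scale. The fits of Neil1 and Apex1 EBs recovered 84% and 86% of these genes, with 9.2% and 13.1% of calls on genes not changed. All libraries were drawn as independent, the Apex1 duplicates too, so that the rates for Apex1 do not cover the spread between clones. The Neil1 interaction with retinoic acid recovered 33.5%, with 8.2% of calls on genes not changed.

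Same-numbered libraries of a genotype are the same clone at another stage. The deviations of a clone from its group means correlated by 0.17 to 0.48 between EBs and EBs + RA, by −0.47 to 0.20 between mESCs and EBs and by −0.19 to 0.16 between mESCs and EBs + RA (9 clones). Across genotypes a number names different clones. The Apex1 duplicates are technical. No library was a copy of another: chi-square per degree of freedom was 5.94 to 137.22 over 30 pairs of libraries of a group. Analysis of the mutated exons was not possible with counts summed per gene.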

Additional observations from a re-analysis of the deposited data

Results flagged for a closer look

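The results listed here are those in which the change between 2 stages differed between a mutant and the control by an interaction test (log2 difference of the changes, mutant minus control, ± standard error). The fits were those without the clone as a block. With the block, the differences from mESCs to EBs of Tet1 and Dnmt3a in Neil1 and of Tet1 and Tet3 in Neil2 cells were not called. With retinoic acid, the block added Tet1, Tet2 and Uhrf1 in Neil2 and Tet1 in Apex1 cells. Several of those listed were also lost when a clone or library was left out, as given above. From mESCs to EBs, the difference in Neil1 cells was 0.89 ± 0.24 for Tet1, 0.90 ± 0.19 for Tet2, −1.06 ± 0.25 for Tet3 and 0.88 ± 0.30 for Dnmt3a. In Neil2 cells it was 0.82 ± 0.26 for Tet1, 1.02 ± 0.24 for Tet2 and −0.88 ± 0.27 for Tet3. In Apex1 cells it was 0.56 ± 0.15 for Tet2, −1.71 ± 0.25 for Tet3 and 0.81 ± 0.19 for Dnmt3l.

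From EBs to EBs + RA, the difference in Neil1 cells was −1.19 ± 0.27 for Tet1, −0.81 ± 0.23 for Tet2, −0.57 ± 0.22 for Tet3, −1.62 ± 0.15 for Dnmt3a, 0.59 ± 0.19 for Dnmt3b, 1.01 ± 0.31 for Dnmt3l and −0.70 ± 0.15 for Uhrf1. In Neil2 cells it was −1.01 ± 0.24 for Tet3, −1.46 ± 0.22 for Dnmt3a, 0.87 ± 0.31 for Dnmt3b and 1.11 ± 0.31 for Dnmt3l. In Apex1 cells it was 0.75 ± 0.27 for Tet3, −0.51 ± 0.16 for Dnmt3a, 0.60 ± 0.17 for Dnmt3b and 1.21 ± 0.30 for Dnmt3l. In this step Tet3 was the one member whose differences were negative in some mutants and positive in another, and whether Neil1 or Neil2 cells differed from Apex1 cells was not tested. The control libraries are shared by these comparisons. No level of a member was tested for single outlying libraries, since no group had more than 3.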

How the results depend on the processing

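No member that was called in either fit changed direction under an alternative. Over all comparisons, single members lost or gained a call 1 and 3 times with DESeq2, 4 and 0 times with RLE size factors, 2 and 3 times with no filter, 7 and 3 times in the fit of all 12 groups, 6 and 5 times with a block, and 94 and 9 times (1041 not) with a library or clone left out. The number of members called moved by over 1.5 times in the cases that follow, and by at most 1 in all other fits that kept every library. In Neil1 mESCs it went from 0 to 1 with DESeq2 and to 1 in the fit of all 12 groups, and in Apex1 mESCs from 0 to 1 with DESeq2, to 1 with no filter and to 1 with the replicate number as a block. With the clone as a replicate block, the interaction from mESCs to EBs gave 2 members in Neil1 (4 without it) and 1 in Neil2 cells (3 without it), and the interaction from EBs to EBs + RA gave 7 in Neil2 cells (4 without it). In the fit of all 12 groups the latter gave 1 in Apex1 cells (4 in the fit of its own groups). The block changed no other call than those given here and beside the results, except that with the number as a block, which does not pair clones, Tet1 was called in Apex1 mESCs (0.52, FDR 4.31e-06) and lost its call in Apex1 EBs + RA (0.44, FDR 0.0528).

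Leaving out each library or clone in turn gave 3 to 4 members for control EBs against mESCs and 5 to 6 for EBs + RA against EBs. It gave 0 to 0 in Neil1 and Neil2 mESCs and 0 to 1 in Apex1 mESCs. For Neil1, Neil2 and Apex1 it gave 4 to 5, 0 to 5 and 4 to 4 in EBs, and 5 to 6, 4 to 4 and 1 to 3 in EBs + RA. The stage changes gave 5 to 6, 3 to 6 and 2 to 5 from mESCs to EBs and 7 to 7, 7 to 7 and 5 to 5 with retinoic acid. The interactions gave 2 to 4, 0 to 4 and 1 to 3 from mESCs to EBs and 3 to 7, 2 to 5 and 0 to 5 with retinoic acid. Neil1 against Neil2 gave 0 to 0 at each stage. Where an Apex1 library was left out, the lone library was assumed to vary like the others.

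Over all genes, 283 were called in Neil1 mESCs (161 higher, 122 lower), against 999 with DESeq2, 503 with no filter, 1279 in the fit of all 12 groups (590 higher, 689 lower) and 0 with the block (1828 at an unadjusted p under 0.05 in edgeR). In Neil2 mESCs, 286 were called (219 higher, 67 lower), against 811 with DESeq2 (481 and 330), 479 with no filter and 634 with the block (397 and 237), and the split was 189 and 127 in the fit of all 12 groups. The block gave 6140 in place of 2751 in Apex1 mESCs, 982 in place of 1703 in the Neil2 interaction from mESCs to EBs, and 4163 in place of 2581 in Neil2 and 4192 in place of 2779 in Apex1 cells in that with retinoic acid, where the fit of all 12 groups gave 1811 for Apex1. Neil1 against Neil2 gave 4 and 1 genes in mESCs and EBs with no filter and 546 in EBs + RA in the fit of all 12 groups. The cause was not tested. Scaling to the plain total moved 27 of 96 group levels by more than 1 SD and RLE size factors moved 2. Of the members, Tet3 had the least depth, with as few as 133 counts in a library.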

Other observations

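Among 9 germline genes that are known to be silenced by methylation of their promoters, 1 rose and 5 fell between control mESCs and EBs, and none rose and 5 fell with retinoic acid. Of all genes tested, 38.7% and 44.1% were called in these 2 steps. In EBs + RA, 7 of 9 were higher in Neil1, 9 in Neil2 and 6 in Apex1 than in control, with none lower and medians of 1.71, 1.98 and 1.15 on the log2 scale, against 0.00, 0.00 and −0.02 over all genes tested. Of all genes tested, 21.2%, 18.3% and 13.9% were called higher in these comparisons. Dazl, an RNA-binding protein of germ cells, was higher in Neil1 (2.18 ± 0.25, FDR 0.00066) and Neil2 EBs + RA (2.59 ± 0.17, FDR 0.000158), and Tex101, a germ cell surface protein, in Apex1 EBs + RA (1.54 ± 0.33, FDR 0.0143). The list sum was 144 to 257, 218 to 258 and 125 to 136 CPM against 52.1 to 83.3 in control. In EBs, 6 were higher and 1 lower in Neil1, 5 and 1 in Neil2 and 1 and 3 in Apex1. In mESCs, 1 was higher in Neil1 and in Apex1 cells, and 1 was lower in Apex1 cells. Of all genes tested, 23.5%, 16.3% and 25.8% were called in Neil1, Neil2 and Apex1 EBs and 1.82%, 1.83% and 16.9% in mESCs. Dazl, Ddx4 and Dnd1 are also germ cell markers, and methylation itself was not measured in these libraries.

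Of 7 readers of methylated DNA, 3 rose between control mESCs and EBs and 5 rose and 1 fell with retinoic acid, beside 38.7% and 44.1% of all genes tested that were called, so that the first count lies near the share of all genes. In mutant EBs + RA, 0 were higher and 1 lower in Neil1 and in Neil2, in both cases Zbtb33 (−0.81 ± 0.23, FDR 0.0251 and −0.80 ± 0.16, FDR 0.00747), and 1 and 2 in Apex1. In EBs, 1 was higher in Neil1 and in Neil2, and 1 was higher and 1 lower in Apex1. In mESCs, 0, 1 and 3 were higher. Of all genes tested, 41.1%, 34.9% and 24.8% were called in Neil1, Neil2 and Apex1 EBs + RA. These shares were 23.5%, 16.3% and 25.8% in EBs and 1.82%, 1.83% and 16.9% in mESCs.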
